A study of Mus musculus with 14 samples.

Results

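Prostaglandin and leukotriene enzymes are the proteins that turn arachidonate, a fatty acid of cell membranes, into the lipid signals called prostaglandins and leukotrienes. The group was chosen by gene symbol from a list of 10 genes (Ptgs1, Ptgs2, Ptges, Ptgds, Hpgds, Alox5, Alox5ap, Lta4h, Ltc4s and Alox15), taking for each symbol the probe set with the highest mean over all arrays. Each of 9 symbols matched 1 probe set, out of 19505 distinct symbols measured, and Ptgs1 is not analysed here. The list was drawn up with earlier results of these data known, among them that Ptgds was high in one control group. The Ptgds values are therefore described without a test, and the 8 other members were tested within a fit across 22206 probe sets.

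Cyclooxygenases convert arachidonate into prostaglandin H2, from which separate synthases make prostaglandin E2, prostaglandin D2 and thromboxane. In the other branch, 5-lipoxygenase works with its activating protein to make leukotriene A4, which becomes leukotriene B4, an attractant of neutrophils, or leukotriene C4, the first of the cysteinyl leukotrienes. In blood-forming tissue these enzymes are best known from mast cells, basophils, eosinophils, neutrophils, monocytes and macrophages.

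RNA of mouse haematopoietic progenitor cells (HPCs), which are lineage-depleted bone marrow cells grown in culture, was measured on 14 Affymetrix expression arrays to follow what changes with N-Myc and with mutations that accumulate in mitochondrial DNA. Cells of all groups received an MSCV retrovirus carrying yellow fluorescent protein, made in GP+E86 packaging cells. The 6 groups were Hom-NMyc, Het-NMyc and WT-NMyc (2 arrays each), whose vector also carried NMyc, Hom-Ctrl (2 arrays), and Het-Ctrl and WT-Ctrl (3 arrays each), whose vector held the marker alone. Hom mice carried a mutant Polg allele on both chromosomes (Polgmut/mut), Het mice on one (Polgwt/mut) and WT mice on none (Polgwt/wt). Polg encodes the polymerase that copies mitochondrial DNA. The age of the mice, the number of mice behind an array and any selection of marker-positive cells before RNA extraction are not stated by the labels. The labels call the arrays biological replicates.

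Values are log2 probe set signals as deposited, and differences are on the same log2 scale. Mycn, read as a check of the labels, lay between 12.15 and 12.38 in the NMyc arrays and between 7.43 and 7.76 in 7 of the 8 Ctrl arrays. The library labelled Hom-Ctrl replicate 1 stood apart at 9.77, so the calls of members, and those of pathway genes between Hom-Ctrl and WT-Ctrl, are also given without it. Polg averaged 6.99 ± 0.065 in the Hom-Ctrl arrays (SD, n = 2) and 7.26 ± 0.381 in the WT-Ctrl arrays (SD, n = 3). A probe set outside the altered bases does not check the genotype. Among the progenitor genes, Kit, Cd34, Myb, Gata2, Spi1 and Ptprc lay at 8.14 or above in every array, while Meis1 ranged from 6.31 to 8.66, Hlf from 5.86 to 6.92 and Mecom from 4.95 to 5.85. Flt3 stayed between 4.18 and 5.61, near the negative control median of 4.39 to 4.87. Of 10 progenitor genes 0 rose and 4 fell with NMyc by limma's test, and their summed linear level was 14314 to 15516 in the NMyc arrays and 16770 to 17611 in the Ctrl arrays. The gap between positive and negative control sets was 4.36 ± 0.188 in the NMyc arrays (SD, n = 6) and 3.96 ± 0.186 in the Ctrl arrays (SD, n = 8), and its part in the results was not tested.

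With NMyc, averaged over the genotypes, 4 of the 8 tested members fell (Ptgs2, Ptges, Alox5ap and Lta4h), 1 rose (Alox15), and Hpgds, Alox5 and Ltc4s did not pass the test. A member counts as called where limma's p, adjusted by the Benjamini-Hochberg method over all probe sets, was under 0.05. In the same comparison 33.6% of all probe sets were called, 15.5% down and 18.2% up. The same 5 members were called without Hom-Ctrl replicate 1. The median difference was -0.22 over the 8 members and -0.02 over all probe sets. For 4 members (Ptgs2, Ptges, Alox5ap and Alox15) no NMyc array overlapped a Ctrl array, which was so for 17.1% of all probe sets. Fewer cells of a type and less RNA per cell cannot be told apart in such bulk samples. Genes of several mature cell types moved with the vector, and their values follow the members.

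**Figure D1:**
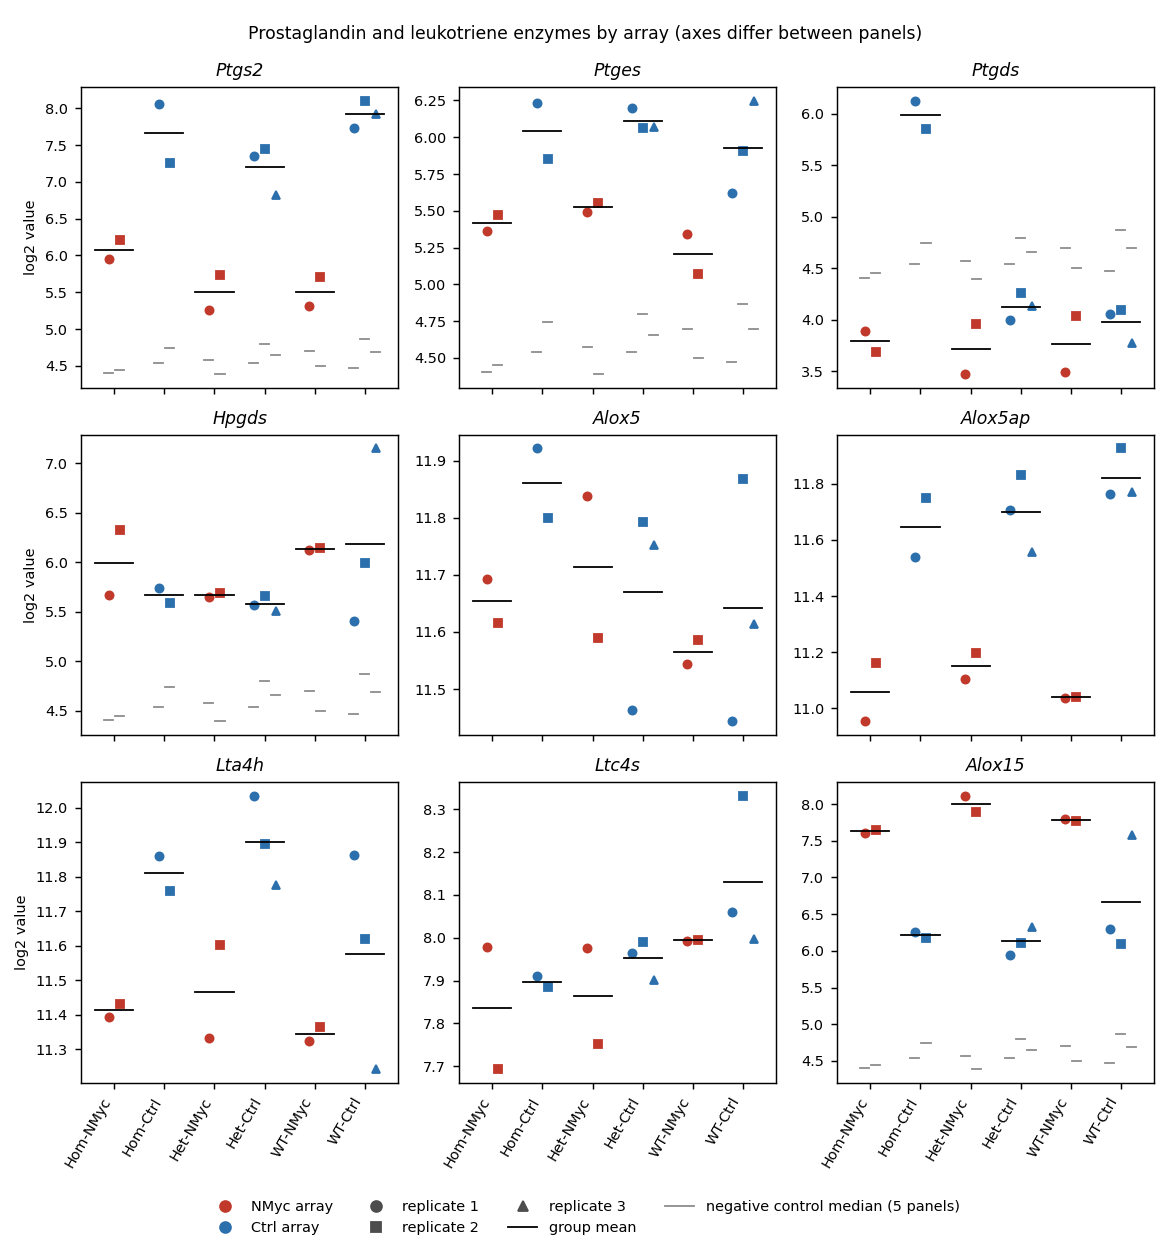
Log2 value of each of the 9 measured members in each of the 14 arrays (y axis, with a scale of its own per panel), by group on the x axis, in red for NMyc and blue for Ctrl. The symbol shape gives the replicate number, black lines are group means, and short grey lines are the array's negative control median in 5 panels. Ptgs2, Ptges and Alox5ap are lower and Alox15 is higher in all 6 NMyc arrays than in any of the 8 Ctrl arrays, while Ptgds is high in the 2 Hom-Ctrl arrays.

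Ptgs2, the inducible cyclooxygenase (COX-2), had the largest difference with NMyc among the tested members. Its value was 5.95 and 6.20 in the Hom-NMyc arrays, 5.27 and 5.73 in the Het-NMyc arrays and 5.31 and 5.70 in the WT-NMyc arrays. It was 8.06 and 7.26 in the Hom-Ctrl arrays, 7.35, 7.44 and 6.82 in the Het-Ctrl arrays and 7.73, 8.10 and 7.93 in the WT-Ctrl arrays. All NMyc arrays lay below all Ctrl arrays, and within the NMyc arrays the Hom pair was the highest. The averaged difference was -1.90 ± 0.15 (SE), a 3.73-fold lower level (adjusted p = 7.67e-08). Of the negative control sets, 64.3% to 87.3% lay below Ptgs2 in the NMyc arrays and 89.2% to 96.8% in the Ctrl arrays. Its NMyc values thus lay within the range of those sets. Within genotypes, Ptgs2 fell by 1.58 in Hom cells, fell by 1.71 in Het cells and fell by 2.41 in WT cells (adjusted p = 0.000774, 0.000148 and 7.99e-06). Without Hom-Ctrl replicate 1, the difference in Hom cells was -1.18 (adjusted p = 0.0163).

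The NMyc effect on Ptgs2 was smaller in Hom than in WT cells by 0.83 log2 units, with a 95% interval of 0.05 to 1.60, and this difference of effects was not called (adjusted p = 0.549). Its unadjusted p was 0.0378. The difference of effects was 1.23 without Hom-Ctrl replicate 1 (adjusted p = 0.285). The sequence before the Ptgs2 start site is shown because this gene had the largest NMyc difference and its window holds CACGTG, the E-box letters that dimers of Myc proteins with Max bind. The window runs from 250 bases before to 50 bases after the start site given by RefSeq in GRCm38.p6, here chr1:150099781-150100080 on the plus strand. Capitals mark a GC box (GGGCGG, bases -170 to -165) and a run in which the E-box (bases 17 to 22) overlaps TGACG, a CRE half-site, on the opposite strand (bases 14 to 18).
Ptgs2 window: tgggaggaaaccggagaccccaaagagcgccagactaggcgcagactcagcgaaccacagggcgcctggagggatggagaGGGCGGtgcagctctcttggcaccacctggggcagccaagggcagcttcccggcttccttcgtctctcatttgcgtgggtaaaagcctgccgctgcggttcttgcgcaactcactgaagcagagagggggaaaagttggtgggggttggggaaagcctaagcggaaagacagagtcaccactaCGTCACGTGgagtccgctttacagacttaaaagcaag
Of 32851 windows of the same length, 7.15% hold CACGTG, 20.8% TGACG and 35.7% GGGCGG on either strand. Among the 7 measured members with a window, Ptgs2 alone holds the E-box or the CRE half-site, and 3 hold a GC box. These matches describe the letters and say nothing about binding in these cells.

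Ptges, the microsomal synthase that makes prostaglandin E2 and is often induced together with Ptgs2, fell as well. Its value was 5.36 and 5.47 in the Hom-NMyc arrays, 5.49 and 5.55 in the Het-NMyc arrays and 5.34 and 5.07 in the WT-NMyc arrays. The corresponding values were 6.23 and 5.85 in the Hom-Ctrl arrays, 6.20, 6.06 and 6.07 in the Het-Ctrl arrays and 5.62, 5.90 and 6.25 in the WT-Ctrl arrays. Every NMyc array lay below every Ctrl array, and the highest NMyc array (5.55) was close to the lowest Ctrl array (5.62). The averaged difference was -0.64 ± 0.11 (SE), or 1.56-fold (adjusted p = 0.000164). Ptges exceeded the negative control median in all 14 arrays, but only 65.0% to 85.4% of the negative control sets had a lower value. The fold is therefore read within the range of those sets. Ptges was called in each genotype, at -0.62 in Hom cells (adjusted p = 0.0386), -0.59 in Het cells (adjusted p = 0.0307) and -0.72 in WT cells (adjusted p = 0.00925). Without Hom-Ctrl replicate 1, the difference in Hom cells was -0.44 and no longer called (adjusted p = 0.289), nor was it without either Hom-NMyc array (adjusted p = 0.186 and 0.117) or either Het-NMyc array (0.0515 each). In Het cells the call was lost without any 1 of the 5 Het arrays (adjusted p = 0.0550 to 0.165), and in WT cells without WT-NMyc replicate 2 (adjusted p = 0.135). The Ptges window (chr2:30903248-30903547, minus strand, GRCm38.p6) is shown beside that of Ptgs2 because both genes fell. Capitals mark its 2 GC boxes, at bases -53 to -48 and -42 to -37.
Ptges window: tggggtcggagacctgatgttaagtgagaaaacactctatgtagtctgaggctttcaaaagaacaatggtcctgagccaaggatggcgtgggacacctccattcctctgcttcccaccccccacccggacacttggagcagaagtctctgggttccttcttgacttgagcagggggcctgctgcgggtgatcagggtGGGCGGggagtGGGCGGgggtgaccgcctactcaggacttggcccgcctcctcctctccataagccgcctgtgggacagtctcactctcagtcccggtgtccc

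Ptgds, the lipocalin-type prostaglandin D2 synthase, which also carries small lipophilic molecules, stood out by genotype. With NMyc its log2 value was 3.89 and 3.69 in the Hom-NMyc arrays, 3.47 and 3.96 in the Het-NMyc arrays and 3.49 and 4.04 in the WT-NMyc arrays. With the Ctrl vector it was 6.13 and 5.85 in the Hom-Ctrl arrays, 3.99, 4.26 and 4.13 in the Het-Ctrl arrays and 4.05, 4.10 and 3.77 in the WT-Ctrl arrays. Both Hom-Ctrl arrays lay above all the others, and they were the only arrays in which Ptgds exceeded the array's negative control median. In them 83.8% and 75.8% of the negative control sets had a lower value, against 16.3% to 37.6% in the other arrays.

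With arrays below the negative control median placed at that median, Ptgds was at least 2.48-fold higher in Hom-Ctrl than in WT-Ctrl arrays and at least 2.51-fold higher than in Het-Ctrl arrays. It was at least 2.95-fold lower in Hom-NMyc than in Hom-Ctrl arrays. The measured means were 5.99 ± 0.192 in Hom-Ctrl arrays (SD, n = 2), 4.13 ± 0.134 in Het-Ctrl arrays and 3.97 ± 0.174 in WT-Ctrl arrays (SD, n = 3 each). The mean was 3.79 ± 0.140 in Hom-NMyc arrays, against 5.99 ± 0.192 in Hom-Ctrl arrays (SD, n = 2 each). Other bounds were chosen after seeing the data. Without Hom-Ctrl replicate 1, Ptgds was at least 2.26-fold higher in Hom-Ctrl than in WT-Ctrl arrays, at least 2.28-fold higher than in Het-Ctrl arrays, and at least 2.69-fold lower in Hom-NMyc than in Hom-Ctrl arrays. Within the first run of sample codes, which holds replicate 1 of the Ctrl groups, it was at least 3.15-fold higher in Hom-Ctrl than in WT-Ctrl, and within the second run at least 1.98-fold. Each run compares 1 array with 1, and the Hom-Ctrl array of the first run is the library that stood apart by Mycn. No fold is given between the other groups, in which Ptgds was not above the negative control median. The window of Ptgds (chr2:25469700-25469999, minus strand, GRCm38.p6) is shown because its level set the Hom-Ctrl arrays apart, and it has no capitals because it holds none of the motifs searched on both strands. These were the E-box (CACGTG), the CRE half-site (TGACG), the GC box (GGGCGG), the CCAAT box (CCAAT) and the TATA box (TATAAA, held by 13.6% of all windows).
Ptgds window: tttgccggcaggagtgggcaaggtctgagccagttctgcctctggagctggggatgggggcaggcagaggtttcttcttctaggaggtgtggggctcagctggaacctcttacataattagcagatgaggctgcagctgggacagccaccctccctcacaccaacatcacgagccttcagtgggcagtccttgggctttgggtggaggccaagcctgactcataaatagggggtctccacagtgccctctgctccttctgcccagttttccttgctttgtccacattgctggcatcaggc

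Hpgds, the haematopoietic prostaglandin D2 synthase known from mast cells, was 5.66 and 6.33 in the Hom-NMyc arrays, 5.65 and 5.69 in the Het-NMyc arrays and 6.12 and 6.15 in the WT-NMyc arrays. The Ctrl values were 5.74 and 5.59 in the Hom-Ctrl arrays, 5.57, 5.66 and 5.51 in the Het-Ctrl arrays and 5.41, 5.99 and 7.15 in the WT-Ctrl arrays. The NMyc and Ctrl arrays overlapped, and WT-Ctrl replicate 3 was the highest of all, 1.45 above the mean of the other WT-Ctrl arrays. Over the 14 arrays, 69.9% to 92.9% of the negative control sets lay below Hpgds. The averaged NMyc difference of 0.12 ± 0.20 (SE) was not called, with a 95% interval of -0.30 to 0.55 (adjusted p = 0.703). Without WT-Ctrl replicate 3, an array picked by its high Hpgds value, the difference was 0.29 and not called. The prostaglandin D2 synthases had different arrays at their top, the Hom-Ctrl pair for Ptgds and 1 WT-Ctrl array for Hpgds.

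In the leukotriene branch, Alox5ap fell while Alox5, the enzyme it presents arachidonate to, did not pass the test. Alox5ap was 10.95 and 11.16 in the Hom-NMyc arrays, 11.10 and 11.20 in the Het-NMyc arrays and 11.04 and 11.04 in the WT-NMyc arrays. It was 11.54 and 11.75 in the Hom-Ctrl arrays, 11.71, 11.83 and 11.56 in the Het-Ctrl arrays and 11.76, 11.93 and 11.77 in the WT-Ctrl arrays. All 6 NMyc arrays lay below all 8 Ctrl arrays. The averaged difference was -0.64 ± 0.08 (SE), a 1.56-fold lower level (adjusted p = 1.84e-05). Alox5ap was called in Hom cells (-0.59, adjusted p = 0.0151), Het cells (-0.55, adjusted p = 0.0118) and WT cells (-0.78, adjusted p = 0.000994). Without Hom-Ctrl replicate 1 the Hom difference was -0.70 (adjusted p = 0.0289). The Hom call was lost without Hom-Ctrl replicate 2 (adjusted p = 0.108) or Hom-NMyc replicate 1 (0.143), and the Het call without Het-Ctrl replicate 2 (0.0506), Het-NMyc replicate 1 (0.110) or Het-NMyc replicate 2 (0.0558).

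Alox5, which makes leukotriene A4, was 11.69 and 11.62 in the Hom-NMyc arrays, 11.84 and 11.59 in the Het-NMyc arrays and 11.54 and 11.59 in the WT-NMyc arrays. It was 11.92 and 11.80 in the Hom-Ctrl arrays, 11.46, 11.79 and 11.75 in the Het-Ctrl arrays and 11.44, 11.87 and 11.61 in the WT-Ctrl arrays. The vectors overlapped, with both extremes among the Ctrl arrays (11.44 in WT-Ctrl and 11.92 in Hom-Ctrl). The averaged NMyc difference was -0.08 ± 0.10 (SE), with a 95% interval of -0.28 to 0.12 (adjusted p = 0.586). A change of the size measured for Alox5ap lies outside that interval.

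Lta4h, the hydrolase that makes leukotriene B4, was 11.39 and 11.43 in the Hom-NMyc arrays, 11.33 and 11.60 in the Het-NMyc arrays and 11.32 and 11.37 in the WT-NMyc arrays. It was 11.86 and 11.76 in the Hom-Ctrl arrays, 12.03, 11.89 and 11.78 in the Het-Ctrl arrays and 11.86, 11.62 and 11.24 in the WT-Ctrl arrays. Of the Ctrl arrays, 7 lay above every NMyc array, and WT-Ctrl replicate 3 lay below all of them. The averaged difference was -0.35 ± 0.10 (SE), a 1.28-fold lower level (adjusted p = 0.0126). It was -0.41 without WT-Ctrl replicate 3. That array was picked by its Lta4h value, so a larger difference was fixed in advance and adds no support. Within single genotypes it was not called, at -0.40 in Hom cells, -0.43 in Het cells and -0.23 in WT cells (adjusted p = 0.176, 0.0962 and 0.435). Without Hom-Ctrl replicate 1 the Lta4h difference was -0.34 on average (adjusted p = 0.0348) and -0.35 in Hom cells (adjusted p = 0.430). With the run of sample codes as a block the averaged difference was -0.25 and lost its call (adjusted p = 0.0898), and without Het-NMyc replicate 1 it was -0.31 (adjusted p = 0.0506). Its window (chr10:93453146-93453445, plus strand, GRCm38.p6) is shown as that of the leukotriene enzyme that fell, and capitals mark its CCAAT box at bases -107 to -103 and a second one, on the opposite strand, at bases -60 to -56. A CCAAT box stands in 37.4% of all windows.
Lta4h window: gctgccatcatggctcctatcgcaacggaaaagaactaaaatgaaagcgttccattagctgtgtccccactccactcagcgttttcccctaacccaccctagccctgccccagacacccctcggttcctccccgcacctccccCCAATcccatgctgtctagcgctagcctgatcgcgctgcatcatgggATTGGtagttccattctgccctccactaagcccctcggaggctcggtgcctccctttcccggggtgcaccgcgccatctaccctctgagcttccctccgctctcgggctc

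Ltc4s, the synthase of leukotriene C4, was 7.98 and 7.69 in the Hom-NMyc arrays, 7.97 and 7.75 in the Het-NMyc arrays and 7.99 and 7.99 in the WT-NMyc arrays. It was 7.91 and 7.88 in the Hom-Ctrl arrays, 7.96, 7.99 and 7.90 in the Het-Ctrl arrays and 8.06, 8.33 and 7.998 in the WT-Ctrl arrays. The arrays overlapped and spanned 7.69 to 8.33 in all. The averaged NMyc difference was -0.10 ± 0.09 (SE), with a 95% interval of -0.28 to 0.09 (adjusted p = 0.466).

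Alox15, which in the mouse makes mainly the 12-hydroperoxide of arachidonate and is known from eosinophils and resident macrophages, was the tested member that rose. Its value was 7.60 and 7.65 in the Hom-NMyc arrays, 8.11 and 7.90 in the Het-NMyc arrays and 7.80 and 7.78 in the WT-NMyc arrays. It was 6.26 and 6.18 in the Hom-Ctrl arrays, 5.94, 6.11 and 6.33 in the Het-Ctrl arrays and 6.30, 6.09 and 7.59 in the WT-Ctrl arrays. All NMyc arrays lay above all Ctrl arrays, and WT-Ctrl replicate 3 (7.59) was almost level with the lowest NMyc array (7.60). Of the negative control sets, 95.8% to 97.3% lay below Alox15 in the NMyc arrays and 76.4% to 94.9% in the Ctrl arrays. The averaged difference was 1.47 ± 0.18 (SE), a 2.77-fold higher level (adjusted p = 8.29e-06). It was 1.62 without WT-Ctrl replicate 3. That array was picked by its Alox15 value, so a larger difference was fixed in advance and adds no support. Alox15 rose by 1.41 in Hom cells (adjusted p = 0.00749), by 1.88 in Het cells (adjusted p = 0.000371) and by 1.13 in WT cells (adjusted p = 0.0148). The WT call was lost without WT-Ctrl replicate 1 (adjusted p = 0.0581) or replicate 2 (0.0636), or without either WT-NMyc array (0.0881 and 0.0876), and the Hom call without Hom-NMyc replicate 2 (0.0558). The Alox15 difference in Hom cells was 1.45 without Hom-Ctrl replicate 1 (adjusted p = 0.0393).

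**Figure D2:**
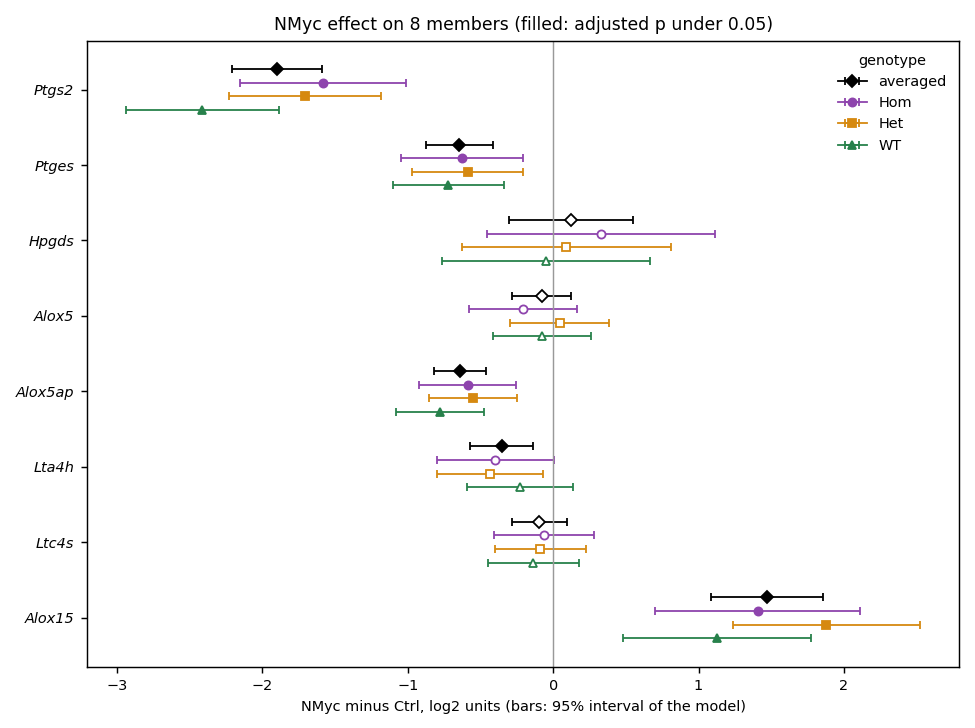
NMyc minus Ctrl difference of the 8 tested members in log2 units (x axis), averaged over genotypes and within Hom, Het and WT cells. Symbols are filled where limma's adjusted p was under 0.05 and bars are 95% intervals of the model. Ptgs2, Ptges and Alox5ap lie left of 0 and Alox15 right of 0 in all 4 estimates, each filled, while Hpgds, Alox5 and Ltc4s are open throughout.

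Within each genotype the calls were the same 4 of 8 members, with Ptgs2, Ptges and Alox5ap down and Alox15 up. The share of all probe sets called was 17.7% in Hom, 19.1% in Het and 19.1% in WT cells. These comparisons share no arrays with each other, and every one of them was a part of the average. The sample codes of the labels form 3 runs, and 5 pairs of NMyc and Ctrl groups of 1 genotype share a run. Within those pairs, Ptgs2 (-2.79 to -1.09), Ptges (-1.18 to -0.49) and Alox5ap (-0.89 to -0.36) were lower with NMyc in 5 of 5, and Alox15 was higher in 5 of 5 (0.19 to 2.00). Lta4h was lower in 4 of 5 pairs (-0.56 to 0.12).

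By genotype, 0 of the 8 tested members passed limma's test in any comparison. Between Hom-Ctrl and WT-Ctrl, where 3.91% of all probe sets were called, 0 members had an unadjusted p under 0.05, and likewise between Hom-Ctrl and Het-Ctrl (2.4% of all called). These comparisons also called 0 members without Hom-Ctrl replicate 1. Between Het-Ctrl and WT-Ctrl 0% of all probe sets were called, and 2 members had an unadjusted p under 0.05. These were Ptgs2 (-0.72, 95% interval -1.18 to -0.25, adjusted p = 0.999) and Lta4h (0.33, 95% interval 0.00 to 0.65, adjusted p = 0.999). With NMyc, 0 members had an unadjusted p under 0.05 in Hom against WT cells or in Het against WT cells, and 0% of all probe sets were called in both. Of all 22206 probe sets, 3774 had an unadjusted p under 0.05 between Hom-Ctrl and WT-Ctrl, and 3310 between Hom-Ctrl and Het-Ctrl. The count was 935 between Het-Ctrl and WT-Ctrl, 1873 between Hom-NMyc and WT-NMyc, and 576 between Het-NMyc and WT-NMyc.

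The widest intervals between Hom-Ctrl and WT-Ctrl belonged to Hpgds (-1.24 to 0.20) and Alox15 (-1.08 to 0.20), the members with 1 high WT-Ctrl array. Without that array the differences were -0.04 for Hpgds and 0.02 for Alox15. Ptgs2 differed by -0.26 between Hom-Ctrl and WT-Ctrl (95% interval -0.78 to 0.26), and by -0.66 without Hom-Ctrl replicate 1 (adjusted p = 0.234). Its 2 Hom-Ctrl arrays lay on either side of the WT-Ctrl mean, since replicate 1 exceeded WT-Ctrl replicate 1 by 0.34 and replicate 2 differed from WT-Ctrl replicate 2 by -0.84. In NMyc cells Ptgs2 was 0.57 higher in Hom than in WT (95% interval -0.00 to 1.14, adjusted p = 0.593), at 0.64 and 0.50 within the runs. The NMyc effect differed between Hom and WT cells for 0 of the 8 members (0.0811% of all probe sets) and between Het and WT cells for 0 of 8 (0% of all probe sets). At an unadjusted p under 0.05, the first of these counted 1 member, Ptgs2, and the second 0. Of all 22206 probe sets, 1896 and 730 passed that threshold in the same comparisons.

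**Figure D3:**
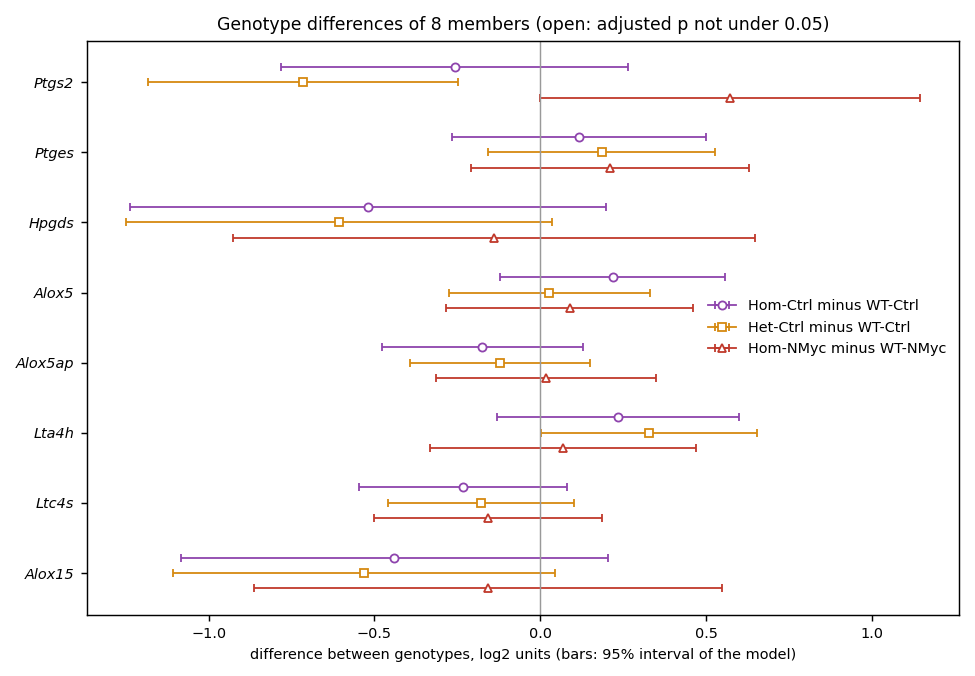
Difference between genotypes of the 8 tested members in log2 units (x axis) for Hom-Ctrl minus WT-Ctrl, Het-Ctrl minus WT-Ctrl and Hom-NMyc minus WT-NMyc, with 95% intervals of the model as bars. All symbols are open, since limma's adjusted p was above 0.05 for each, and the intervals of Hpgds and Alox15 are among the widest.

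Around the members, 55 of 60 listed pathway genes were measured, and their counts with NMyc stand beside 18.2% of all probe sets called up and 15.5% called down. Folds and falls given for them are the model's average, in which the genotypes weigh equally, so they differ slightly from the gap between the means over arrays. The 95th percentile of the negative control sets was 7.15 to 7.60 in NMyc arrays, where Pla2g7 reached at most 7.14 and Alox12 5.63. Values below that percentile lie within the range of those sets, and differences resting on them are read within that range. The list for arachidonate release also holds an inhibitor and the hydrolase of platelet-activating factor, so its counts give no direction for that step. Of the 14 genes of this list, 3 rose and 4 fell with NMyc. Pla2g7, the hydrolase of platelet-activating factor, averaged 6.66 ± 0.30 in NMyc arrays (SD, n = 6) and 8.59 ± 0.37 in Ctrl arrays (SD, n = 8), a 3.80-fold fall (adjusted p = 6.00e-08). Pla2g15, a lysosomal phospholipase, fell by 0.62, and Mgll, a monoacylglycerol lipase, fell by 0.58. Anxa1, an inhibitor of arachidonate release, fell by 0.59 on average, at -0.07 in Hom cells (adjusted p = 0.823), -0.82 in Het cells (adjusted p = 0.000626) and -0.88 in WT cells (adjusted p = 0.00032). The effect on Anxa1 in Hom minus that in WT was 0.81 and was not called (adjusted p = 0.189). Of the 15 other prostanoid and oxylipin enzymes, 3 rose and 6 fell. Alox12, the platelet 12-lipoxygenase, averaged 5.35 ± 0.31 in NMyc arrays (SD, n = 6) and 7.31 ± 0.49 in Ctrl arrays (SD, n = 8), a 3.93-fold fall (adjusted p = 1.96e-06), which is the opposite direction to Alox15. Tbxas1, the thromboxane synthase, fell by 0.80 and Gpx4, which reduces lipid hydroperoxides, fell by 0.59. Ptges2, another prostaglandin E synthase, rose by 0.78, against the fall of Ptges.

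Downstream of the members, 1 of 8 breakdown and conversion genes rose and 3 fell with NMyc. Dpep2, a dipeptidase that turns leukotriene D4 into leukotriene E4, averaged 6.15 ± 0.56 in NMyc arrays (SD, n = 6) and 9.27 ± 0.49 in Ctrl arrays (SD, n = 8), an 8.39-fold fall (adjusted p = 5.80e-09). Mgst2, a glutathione transferase that can also make leukotriene C4, fell by 1.00, and Ggt5, which makes leukotriene D4, fell by 0.57, whereas Ptgr1, which inactivates leukotriene B4 and prostaglandins, rose by 0.65. Of 4 transport genes, Abcc4, an exporter of prostaglandins, rose by 0.90. Of 14 receptor genes, 1 rose and 6 fell. Ltb4r1, the high-affinity leukotriene B4 receptor, averaged 8.28 ± 0.21 in NMyc arrays (SD, n = 6) and 9.65 ± 0.14 in Ctrl arrays (SD, n = 8), a 2.59-fold fall (adjusted p = 2.75e-08). Ptger4, a prostaglandin E2 receptor, fell by 0.80. Ptger2, another one, fell by 0.98 on average, at -0.09 in Hom cells (adjusted p = 0.865), -1.12 in Het cells (adjusted p = 0.0023) and -1.73 in WT cells (adjusted p = 7.24e-05). The effect on Ptger2 in Hom minus that in WT was 1.64 and was not called (adjusted p = 0.0912). Cysltr2, a cysteinyl leukotriene receptor, also fell, but exceeded the negative control median in 0 of 6 NMyc arrays and 4 of 8 Ctrl arrays, so no fold is given.

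**Figure D4:**
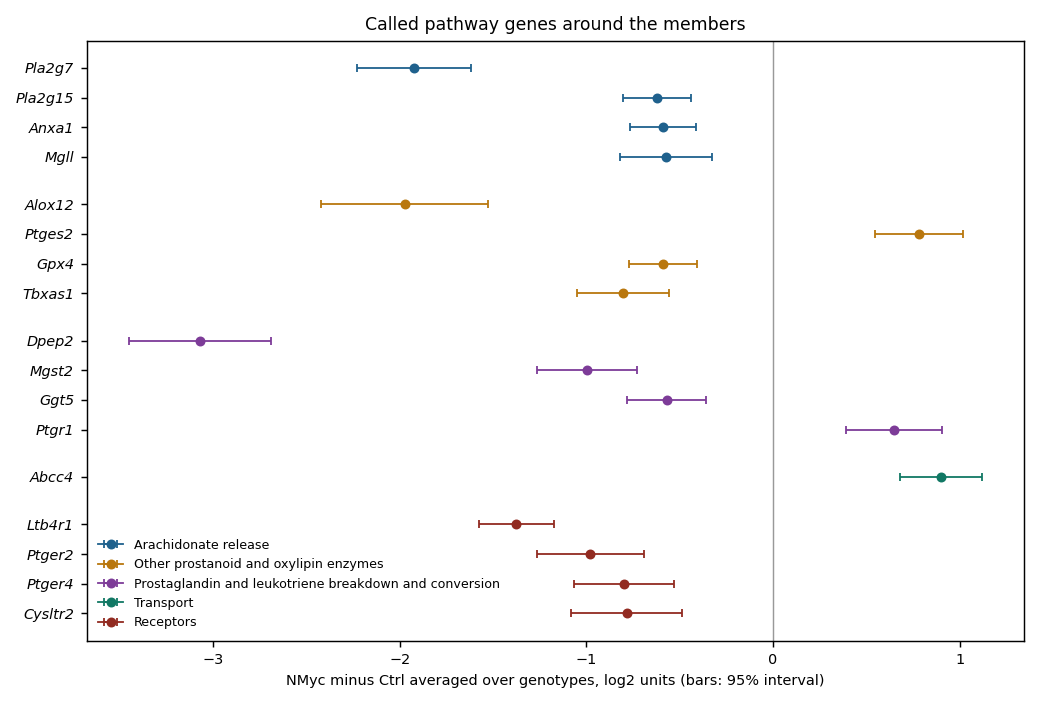
NMyc minus Ctrl difference averaged over genotypes in log2 units (x axis) for the called pathway genes named by rule, grouped by their step, with 95% intervals as bars. Dpep2, Alox12 and Pla2g7 have the largest falls, at -3.07, -1.97 and -1.92, and Ptges2, Ptgr1 and Abcc4 lie to the right of 0.

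Between Hom-Ctrl and WT-Ctrl arrays, 6 of the 55 pathway genes were called, beside 3.91% of all probe sets. Akr1c18, a reductase with prostaglandin F synthase activity, was 12.79 ± 0.14 in Hom-Ctrl arrays (SD, n = 2) and 11.78 ± 0.32 in WT-Ctrl arrays (SD, n = 3), and rose by 1.01 (adjusted p = 0.00558). Cbr1, a carbonyl reductase that acts on prostaglandin E2, rose by 0.83 (adjusted p = 0.00416). Pparg, a nuclear receptor that binds prostaglandin D2 derivatives, was 5.49 ± 0.41 in Hom-Ctrl arrays (SD, n = 2) and 7.40 ± 0.56 in WT-Ctrl arrays (SD, n = 3), a 3.74-fold fall (adjusted p = 0.00238). The Hom-Ctrl values of Pparg (5.21 and 5.78) lay below the 95th percentile of the negative control sets (7.46 and 7.58), so the fold is read within their range. Ptger2 fell by 1.15 (adjusted p = 0.0118), Abcc4 fell by 0.72 (adjusted p = 0.0306) and Anxa1 fell by 0.59 (adjusted p = 0.0285). Without Hom-Ctrl replicate 1, Akr1c18 (1.11, adjusted p = 0.0176), Cbr1 (0.84, adjusted p = 0.0229), Pparg (-1.62, adjusted p = 0.0268) and Ptger2 (-1.40, adjusted p = 0.0154) stayed called, while Abcc4 and Anxa1 did not (adjusted p = 0.119 and 0.113). Without Hom-Ctrl replicate 2, Akr1c18, Cbr1 and Ptger2 were not called either (adjusted p = 0.0908, 0.0639 and 0.173). Pparg kept its call under all 23 alternatives tried.

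Genes of mature cell types differed between the same arrays, and their counts with NMyc stand beside the same 18.2% up and 15.5% down. Of 12 mast cell and basophil genes, 10 fell and 1 rose with NMyc, and their summed linear level was 22855 to 28583 in NMyc arrays and 30711 to 47173 in Ctrl arrays. Of 8 monocyte and macrophage genes 6 fell with NMyc (summed level 2447 to 3081 in NMyc and 7304 to 10614 in Ctrl arrays), of 7 eosinophil genes 4 fell (917 to 1149 in NMyc and 2532 to 3978 in Ctrl arrays), and of 10 neutrophil genes 8 fell and 2 rose (40162 to 44253 in NMyc and 45558 to 58786 in Ctrl arrays). All 6 measured megakaryocyte genes fell (889 to 980 in NMyc and 3505 to 5570 in Ctrl arrays). Of 5 B lymphoid genes 1 rose (212 to 251 in NMyc and 182 to 236 in Ctrl arrays). Erythroid and T and NK genes had 0 calls of 5 each, and 2 of the 5 T and NK genes stayed below the negative control median in every array. Alox15 rose, while 4 of the 7 eosinophil and 6 of the 8 monocyte and macrophage genes fell, as did Ptgs2 and Alox5ap. The other genes of these 2 lists were not called. Of the eosinophil genes, 2 stayed below the negative control median in every array. Between Hom-Ctrl and WT-Ctrl, beside the high Ptgds of Hom-Ctrl and 3.91% of all probe sets called, 4 of the 12 mast cell and basophil genes were called up (summed level 41599 to 47173 in Hom-Ctrl and 30711 to 37803 in WT-Ctrl arrays). Of the 10 neutrophil genes 3 were called down (45558 to 46641 in Hom-Ctrl and 53828 to 58311 in WT-Ctrl arrays), as were 2 of the 8 monocyte and macrophage genes (7304 to 9796 in Hom-Ctrl and 9064 to 10614 in WT-Ctrl arrays) and 1 of the 7 eosinophil genes (2940 to 3978 in Hom-Ctrl and 2532 to 3658 in WT-Ctrl arrays). Of the progenitor genes 1 was called up, and of the other lists 0. The part of these cell types in the members' differences was not tested.

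Across the 14 arrays, the members' patterns differed. As descriptions only, since the arrays share their vectors and groups, Ptgs2 correlated with Alox5ap at r = 0.91 and with Ptges at 0.81, and Alox15 with these at -0.80 (Ptgs2), -0.83 (Alox5ap) and -0.69 (Ptges). Alox5 and Ltc4s stayed between -0.35 and 0.51 with every other member. The gene most like Ptgs2 was Pla2g7 (r = 0.98), followed by Marchf1 and Plekho1 (0.96 each). Alox5ap was followed most closely by Zfp608 (0.98), Ndrg1 (0.97) and the mast cell chymase Cma1 (0.97). For Alox15 the nearest were Letm1, Zhx1 and Denr (0.97 each), for Ptges they were Tbc1d10b (0.94), F11r (0.93) and Il12a (0.92), and for Lta4h they were Hcfc1r1 (0.94), Gpatch2l (0.91) and Plekhb2 (0.91). Ptgds was nearest to Psg17 (0.93), Gfpt1 (0.92) and Uap1 (0.92). Only the 2 Hom-Ctrl arrays held Ptgds above the negative control median, and its values in the other arrays lay below it. The nearest genes of Hpgds, Alox5 and Ltc4s reached 0.84 (Adam6b), 0.86 (Igsf3) and 0.90 (Olfr1154). The median correlation of a member with the probe sets searched lay between -0.05 and 0.05. The search covered probe sets with a gene symbol and left out symbols of the Gm, Rik and accession-like kinds.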

How the data were processed

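The authors' deposited table gives values for probe sets on a log2 scale, which their range (2.24 to 13.5) shows. Per the submitters' processing notes, Affymetrix Expression Console produced them, with version and normalization not given in the sources used here. Array medians lay within 0.084 of each other, so no scaling was added, and a change shared by most genes could have been removed before deposit. Of 28846 probe sets, 6640 control sets were left out and 22206 tested. Symbols came from the platform annotation.

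limma 3.58.1 (R 4.3.3) fitted 6 group means to all 14 arrays with eBayes (8 residual and 7.3 prior degrees of freedom). It tested 11 comparisons two-sided, with Benjamini-Hochberg adjustment over all probe sets, and was tested on simulated data. Arrays not above the negative control median (5222 sets) were placed at it for bounds. The number of arrays limits precision. For Het-Ctrl and WT-Ctrl, the deviations of all 3 same-numbered pairs correlated over 0.1 (0.235 to 0.266). Same-numbered arrays of these groups also share a run of sample codes, so pairing by number and by run cannot be told apart there. Between these groups 0 members were called with or without the replicate block. P-values measure the spread between arrays that the labels call biological replicates.

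Members, lists and tests were chosen with earlier results of these data known. Named were all members, Mycn and Polg, and per member the 3 nearest of the probe sets searched for likeness. Per pathway list, up to 4 called genes by smallest p for NMyc and up to 2 for Hom-Ctrl against WT-Ctrl were named. Promoter windows (300 bases) are RefSeq's.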

Additional observations from a re-analysis of the deposited data

Results flagged for a closer look

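The NMyc difference of Ptgds was apart in Hom cells. The effect in Hom minus that in WT came to -1.99 log2 units on the measured scale, which is no size of a change in expression, since Ptgds was not above the negative control median in Hom-NMyc, WT-NMyc or WT-Ctrl arrays. Its level was at least 2.95-fold lower in Hom-NMyc than in Hom-Ctrl arrays, and no fold is given in WT cells. Ptgds was 3.89 and 3.69 in the Hom-NMyc arrays and 6.13 and 5.85 in the Hom-Ctrl arrays. The entry was flagged because limma's adjusted p for this difference of effects was under 0.05. That p is not given and does not count as a test, because earlier results of these data had singled Ptgds out.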

How the results depend on the processing

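Each result was recomputed under 23 alternatives, 14 of which left out 1 array, and 0 values changed sign among those called. Members called for the averaged NMyc difference numbered 4 to 5 throughout, and for every comparison of genotypes or of NMyc effects 0. Leaving out each array in turn gave 2 to 4 members in WT, 2 to 5 in Het and 2 to 4 in Hom cells. The low counts came without WT-NMyc replicate 2, without Het-Ctrl replicate 2, Het-NMyc replicate 1 or Het-NMyc replicate 2, and without Hom-NMyc replicate 1 or Hom-NMyc replicate 2. Where a group keeps 1 array, it is assumed to vary like the others. Of 2691 values for single genes, 2635 kept their call status, 53 lost a call and 3 gained one. These counts include Ptgds, with 6 of the lost calls. Since Ptgds had been singled out by earlier results, its call status is no evidence of stability. Ptges lost its call in Hom cells under 10 alternatives and in Het cells under 8, and Lta4h lost its averaged call with the code runs as a block (adjusted p = 0.0898), within code runs 2 and 3 (0.0731) and without Het-NMyc replicate 1 (0.0506). Alox15 in WT cells was not called within code runs 2 and 3 (0.0810). The causes were not tested. Between Het-Ctrl and WT-Ctrl, where replicate number and code run coincide, the replicate block changed no call. Other pairs of groups share at most 2 numbers, and 7 of all 31 same-numbered pairs had deviations correlated over 0.1 (-0.13 to 0.27). Of 28 pairs in the same code run, 9 correlated over 0.1 (-0.01 to 0.27). Of 53 pairs in different runs, 1 did. With the replicate block, 5 members were called for the average, 4 in each genotype and 0 elsewhere, with Ptges lost (adjusted p = 0.0692) and Lta4h gained (0.0231) in Het cells. NMyc and Ctrl arrays of the same number lie in different code runs, so this block joins unlike runs across the vectors. The first run holds Ctrl arrays alone, so run and vector are partly mixed. With the code runs as a block, Ptges was not called in Hom cells (adjusted p = 0.0587). The closest array had the same number for 11 of 14 arrays, and lay in the same code run for 13. Counts over all probe sets moved more. Between Hom-Ctrl and WT-Ctrl 868 were called (442 to 1236, and 99 to 928 with 1 array left out), between Hom-Ctrl and Het-Ctrl 533 (231 to 884, and 55 to 641), and for the NMyc effect in Hom minus WT 18 (5 to 62, and 0 to 33). NMyc calls fell at the lowest to 1987 in Hom (3924 with all arrays), 2490 in Het (4232) and 2380 in WT cells (4250), and Hom-NMyc minus WT-NMyc had at most 1. A choice among several probe sets of a symbol could not be varied, since each member has 1. Scalings moved the median of all probe sets by at most 0.053.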
